A study of Talpa occidentalis with 24 samples.

Results

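Scaffolds 19 and 20 of the mole assembly talOcc4 are short, with 3.776 Mb and 0.8562 Mb of segmented bases, and a large share of their length was assigned to the bivalent promoter state in the gonad. The members described here are the bivalent promoter segments on these scaffolds, meaning the unbroken runs of that state in the authors' chromatin segmentations. The ovarian part of the ovotestis had 845 such segments of 14972 in the whole assembly, the testicular part had 691 of 13342 and the testis had 753 of 14287. Scaffold 19 held 634, 512 and 570 of them and scaffold 20 held 211, 179 and 183, in the same order of tissues, which is kept throughout. The members were chosen by the bivalent state of these same segmentations, so their coverage is given as a description with no test. They were set against 10186, 9591 and 10373 bivalent segments on scaffolds 1 to 14, 16 and 17, called the comparison scaffolds here.

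The study profiled gonads of the Iberian mole, Talpa occidentalis, a species whose females carry ovotestes. Wild type animals at post-partum day 7 gave 3 tissues, namely the testis of males and, from the ovotestis, its ovarian and its testicular part. Chromatin immunoprecipitation with sequencing measured the histone marks H3K4me3, H3K4me1, H3K27ac and H3K27me3, with 2 libraries per mark and tissue, 24 libraries in all. The authors combined the 8 libraries of a tissue into 1 segmentation that gives each 200 bp bin 1 of 7 named states: Polycomb repression, bivalent promoter, promoter, poised or active enhancer, gap or undefined. With 1 segmentation per tissue there are no replicates at this level and the depth behind a call is unknown, so no test between tissues or scaffolds was run. Intervals in brackets are Wilson 95% intervals over bins, segments or segment ends; they cover counting only, and neighbouring bins are not independent. Whole gonad pieces hold many cell types, so a bivalent call can come from both marks in the same cells or from different cells of the piece. How many animals contributed to a library is not given in the sources used here.

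Bivalent chromatin carries the active promoter mark H3K4me3 together with H3K27me3, the mark set by Polycomb repressive complex 2. It is best known at CpG-rich promoters of developmental regulators in stem cells and germ cells, where the genes are transcribed weakly or not at all while they can still be switched on or silenced later. Polycomb repression without H3K4me3 marks more stably silenced chromatin and commonly surrounds bivalent promoters. The state names used here are the authors' own, and how each relates to the marks, and what the gap state covers, is not given in the sources used here. Gene models were not placed on these scaffolds, because those at hand lie on other assemblies, so segments are described by position and state.

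Bivalent segments were many times denser on both scaffolds than on the comparison scaffolds, and on scaffold 20 they were also longer. Scaffold 19 carried 168, 136 and 151 bivalent segments per Mb and scaffold 20 carried 246, 209 and 214, against 5.32, 5.01 and 5.41 on the comparison scaffolds. Among the latter, the highest density was that of scaffold 2, with 21.1, 20.6 and 20.1 per Mb, and the lowest that of scaffold 4, with 2.22, 2.19 and 2.27. Over scaffolds 19 and 20 together the density was 34.3, 29.8 and 30.0 times that of the comparison scaffolds, whereas the mean segment was 1.09, 1.09 and 1.08 times as long. That mean hides a difference between them. On scaffold 19 the density was 31.6, 27.1 and 27.9 times and the mean length 0.941, 0.963 and 0.939 times that of the comparison. For scaffold 20 the density was 46.4, 41.8 and 39.5 times and the mean length 1.53, 1.44 and 1.53 times. The number of segments thus made up the larger factor on both, and length added to it on scaffold 20. High density and longer segments were also seen on scaffold 18, which is not a comparison scaffold. It carried 104, 77.7 and 114 segments per Mb, with a mean length of 1493, 1843 and 1978 bp. The mean length was 1803, 1774 and 1954 bp on scaffold 20 and 1177, 1232 and 1274 bp on the comparison scaffolds.

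Coverage of the bivalent state was 18.6%, 16.1% and 18.1% on scaffold 19 and 44.4%, 37.1% and 41.8% on scaffold 20. On the comparison scaffolds it was 0.626%, 0.617% and 0.690%, with individual scaffolds between 0.273% and 2.37%. The scaffolds thus differed from the comparison by far more than the 3 tissues differed from each other. With 0.221% of the segmented bases, scaffolds 19 and 20 held 6.05%, 5.46% and 5.31% of all bivalent bases of the assembly. High coverage was not limited to them. Scaffold 18, which was left out of the comparison, had 15.5%, 14.3% and 22.6%, and the small scaffolds 21 to 4454 had 1.39%, 1.33% and 1.54% as a whole. Of those 4434 small scaffolds, 118, 123 and 132 had a bivalent share at least as high as scaffold 19, and 4121, 4134 and 4098 had no bivalent bin.

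The rest of both scaffolds was also rich in repressive states and poor in enhancers. Polycomb repression covered 27%, 28.7% and 37.9% of scaffold 19 and 29.1%, 38.9% and 41.1% of scaffold 20, against 4.95%, 4.80% and 7.89% of the comparison scaffolds. The poised enhancer state covered 4.11%, 2.88% and 2.06% of scaffold 19 and 4.13%, 1.52% and 0.280% of scaffold 20, against 23.6%, 22.2% and 22.0%. Both traits were shared by scaffold 18. It had 36.5%, 35.4% and 43.2% of Polycomb repression and 0.528%, 0.424% and 1.06% of poised enhancer. In the testis, scaffold 20 had no bin in the promoter state and none in the active enhancer state. The gap state covered 18.4%, 18.6% and 18.8% of scaffold 19 and 9.06%, 8.01% and 9.18% of scaffold 20, against 5.55%, 5.41% and 5.74%. Gap and bivalent shares did not rank the scaffolds alike: scaffold 20 had less gap and more bivalent state than scaffold 19, and the small scaffolds 21 to 4454 had 37.8%, 36.3% and 37.5% of gap state. The part of the gap state in the bivalent calls was not tested.

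**Figure D1:**
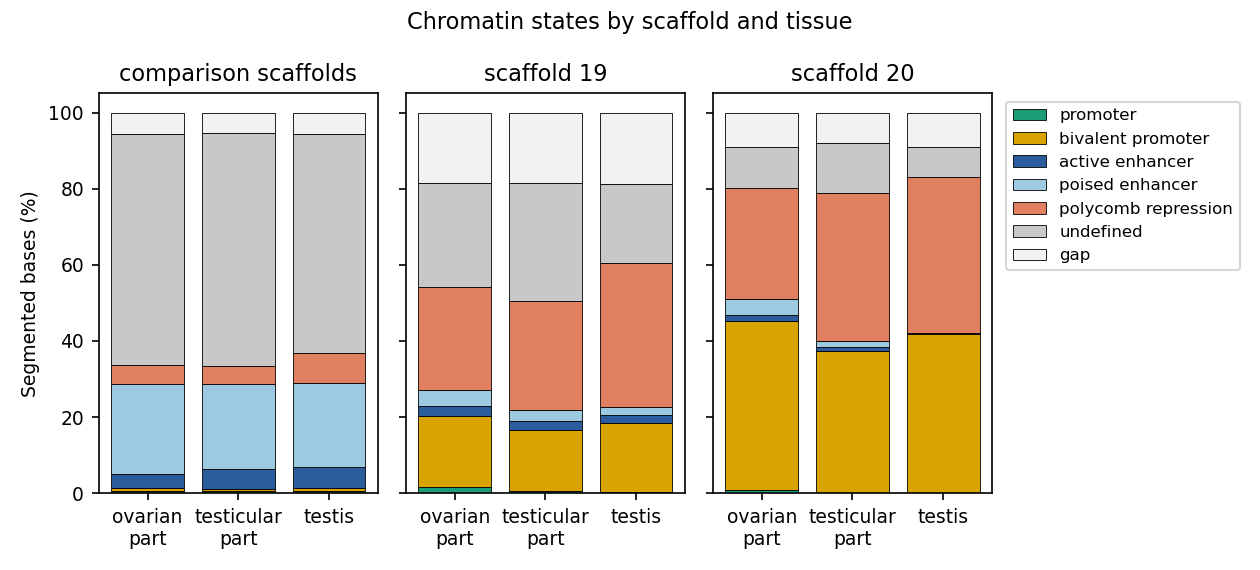
Share of segmented bases in each of the 7 states, as stacked bars in percent, for the comparison scaffolds, scaffold 19 and scaffold 20 in each tissue. Bivalent promoter and Polycomb repression are the largest states of scaffold 20, while undefined and poised enhancer bases fill most of the comparison scaffolds.

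The bivalent segments were not spread evenly. In full windows of 100 kb, bivalent coverage averaged over the tissues ranged from 0% to 80.0% on scaffold 19, with a median of 12.5% over 37 windows, and from 20.7% to 73.4% on scaffold 20, with a median of 33.4% over 8 windows. At least 10% of bivalent state, called dense here, was found in 20 of the 37 windows of scaffold 19 (54.1% [38.4 to 69.0]) and in 8 of 8 on scaffold 20. On the comparison scaffolds 333 of 19153 windows were dense (1.74%), and 91.9% had less than 1% of bivalent state. Of the 333, 113 lay on scaffold 2.

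Near the start of scaffold 19 lay a stretch that was nearly free of bivalent state. The first windows, from 201 to 200200, were bivalent over 8.2%, 4.8% and 8.3%. From 200201 to 800200 the state covered 0.467%, 0.333% and 0.50%, while from 800201 to the end it covered 23.0%, 20.03% and 22.3%. The low stretch was mostly undefined, at 59.8%, 66.8% and 44.5%, with 20.5%, 17.2% and 39.6% of Polycomb repression. Its gap share of 11.5%, 10.9% and 11.2% lay between the 8.2%, 7.1% and 8.0% before it and the 20.5%, 20.9% and 21.1% after it. Its boundaries were set after the profile had been seen. The windows at 200201 to 300200 and 500201 to 600200 were tied as the lowest of the scaffold and had no bivalent bin in any tissue. The highest window, at 1500201 to 1600200, was bivalent over 80.6%, 79.2% and 80.2%. On scaffold 20 the highest window, at 100201 to 200200, was bivalent over 74.0%, 72.8% and 73.4%. It was followed by the lowest of that scaffold, at 200201 to 300200, with 20.6%, 19.4% and 22.0%.

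**Figure D2:**
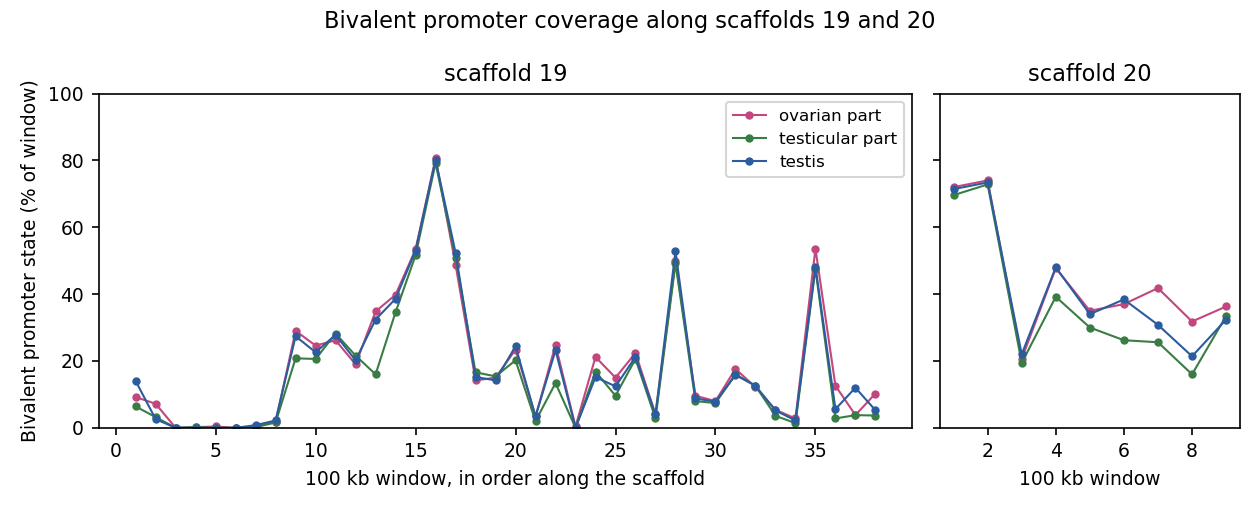
Bivalent promoter coverage in percent of each 100 kb window, in order along scaffold 19 and scaffold 20, with 1 line per tissue; the last window of each scaffold is shorter. The 3 lines follow the same peaks and troughs, from 0% to a window near 80% on scaffold 19, and part most in window 13 of scaffold 19 and windows 7 and 8 of scaffold 20, where the testicular part is lowest.

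The tissues parted most in 3 windows. At 1200201 to 1300200 of scaffold 19 34.8%, 16% and 32.4% were bivalent. At 600201 to 700200 of scaffold 20 the state covered 41.8%, 25.6% and 30.8%, and at 700201 to 800200 it covered 31.8%, 16% and 21.4%. In each of them the testicular part was lowest and its Polycomb share was above that of the ovarian part, with 48.4% against 29.4%, 52.0% against 28.4% and 66.0% against 46.8%. The Polycomb share of the testis was 33.6%, 49.2% and 74.4%, so in the last window it was above that of the testicular part. These windows were picked for the size of their range, so large values follow from the choice. The median range between tissues was 1.80 percentage points per window on scaffold 19 and 6.90 on scaffold 20.

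Lengths set the scaffolds apart from each other. The median bivalent segment was 400 bp on scaffold 19 in each tissue and 1000, 1000 and 1200 bp on scaffold 20, around the 600 bp of the comparison scaffolds in each tissue. Segments of a single 200 bp bin made up 32.6%, 29.5% and 27% on scaffold 19, but 17.5%, 17.9% and 8.74% on scaffold 20, against 21.5%, 19.1% and 17.3%. Segments of at least 2 kb made up 12.8%, 13.7% and 13.9% on scaffold 19, 31.8%, 28.5% and 35.0% on scaffold 20 and 15.8%, 16.8% and 17.7% on the comparison scaffolds. Segments of at least 10 kb made up 1.26%, 1.37% and 1.23% on scaffold 19, from 8, 7 and 7 segments, and 1.42%, 1.68% and 1.64% on scaffold 20, from 3 in each tissue, against 0.569%, 0.657% and 0.704%. Relative to the comparison, scaffold 19 thus had larger shares at both extremes, of single bins and of segments of at least 10 kb, while scaffold 20 had a larger share of segments of at least 2 kb, in each tissue. The intervals of the shares at 10 kb are wide, and on scaffold 20 they reach from 0.485% to 4.81%. The larger share at 10 kb was not particular to these scaffolds. It was 1.14%, 1.38% and 1.59% in the dense windows of the comparison scaffolds and 1.78%, 2.87% and 3.09% on scaffold 18. In those dense windows, which were picked for bivalent coverage, segments of at least 2 kb made up 24.1%, 25.9% and 28.6%. Single bins made up 18.3%, 15.8% and 14.5% of the segments there, and the median segment measured 800, 800 and 1000 bp. The longest unbroken segment of scaffold 19 measured 16.6, 24.8 and 24.8 kb, and that of scaffold 20 measured 18.4, 14.6 and 18.4 kb.

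**Figure D3:**
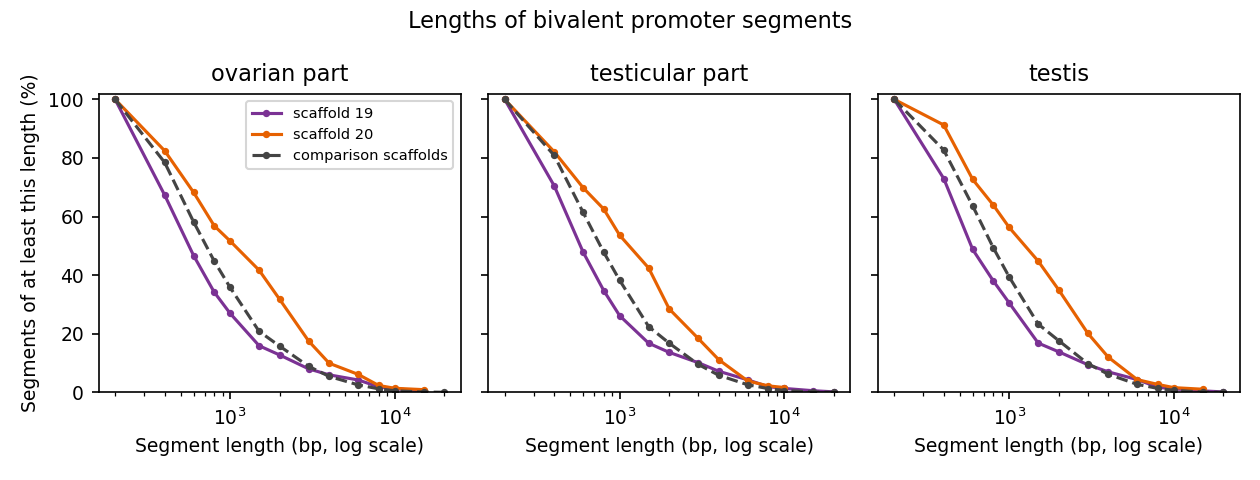
Percent of bivalent promoter segments that are at least as long as the value on the horizontal axis, in bp on a log scale, for scaffold 19, scaffold 20 and the comparison scaffolds in each tissue. The curve of scaffold 20 lies above and that of scaffold 19 below the comparison up to about 2 kb.

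Neighbouring bivalent segments lay close together. The median distance from the end of a segment to the start of the next was 1000, 1200 and 1200 bp on scaffolds 19 and 20 and 2200, 2600 and 2800 bp on the comparison scaffolds. Distances over 10 kb made up 9.13%, 12.3% and 10.5%, against 32.6%, 37.0% and 37.4%. In the dense windows of the comparison scaffolds, which were selected for their coverage after the data had been seen, the median distance was 1000 bp in each tissue and the density was 148, 134 and 134 segments per Mb. Those windows and the members were both chosen for bivalent state, so close spacing in both follows from the choice.

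Interruptions of up to 1 kb between members consisted mostly of Polycomb repression, which made up 67.9%, 67.8% and 65.2% of their bases, followed by the gap state with 26.6%, 28.8% and 32.5%. The gap state made up 15.3%, 15.5% and 18.2% of such bases on the comparison scaffolds. Interruptions that were gap throughout accounted for 21%, 24.6% and 28.7% on scaffold 19, for 7.02%, 5.49% and 8.08% on scaffold 20 and for 7.47%, 7.08% and 7.75% on the comparison scaffolds. Part of the fragmentation of bivalent domains on scaffold 19 therefore coincided with gap bins, which was not seen to that extent on scaffold 20.

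Polycomb repression was the usual neighbour of a bivalent segment. It adjoined 67.3%, 66.1% and 63.3% of the segment ends on scaffold 19 and 83.9%, 86.8% and 87.1% on scaffold 20, against 76.4%, 80.3% and 77.3% on the comparison scaffolds. The gap state adjoined 27.7%, 31.2% and 32.9% of the ends on scaffold 19, 10.7%, 10.4% and 12.9% on scaffold 20 and 12.5%, 12.0% and 13.9% on the comparison scaffolds. Dense windows of the comparison scaffolds, at 13.1%, 11.2% and 13.9%, did not share the high value of scaffold 19. Segments with Polycomb repression on both sides made up 50.2%, 49.6% and 47.2% on scaffold 19, 71.1%, 76.0% and 76.5% on scaffold 20 and 60.7%, 65.9% and 61.4% on the comparison scaffolds. Segments with gap on both sides made up 13.6%, 15.6% and 18.1% on scaffold 19, against 1.90%, 1.68% and 2.19% on scaffold 20.

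Contact with active states was less frequent than on the comparison scaffolds. Promoter or active enhancer state adjoined at least 1 side of 7.73%, 4.69% and 5.44% of the segments on scaffold 19 and 8.53%, 5.03% and 0% of those on scaffold 20, against 15.9%, 11% and 12.9% on the comparison scaffolds. The shares were 2.35%, 0.839% and 2.47% on scaffold 18 and 17.6%, 10.3% and 10.7% in the dense windows of the comparison scaffolds. Promoter state adjoined at least 1 side of 3.47%, 2.73% and 1.75% of the segments on scaffold 19. On scaffold 20 it adjoined 3.32%, 2.23% and 0%. The values were 4.25%, 4.30% and 5.12% on the comparison scaffolds but 2.64%, 1.90% and 2.16% in their dense windows. No member adjoined undefined chromatin in any tissue, and on the comparison scaffolds 1 segment end per tissue did.

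**Figure D4:**
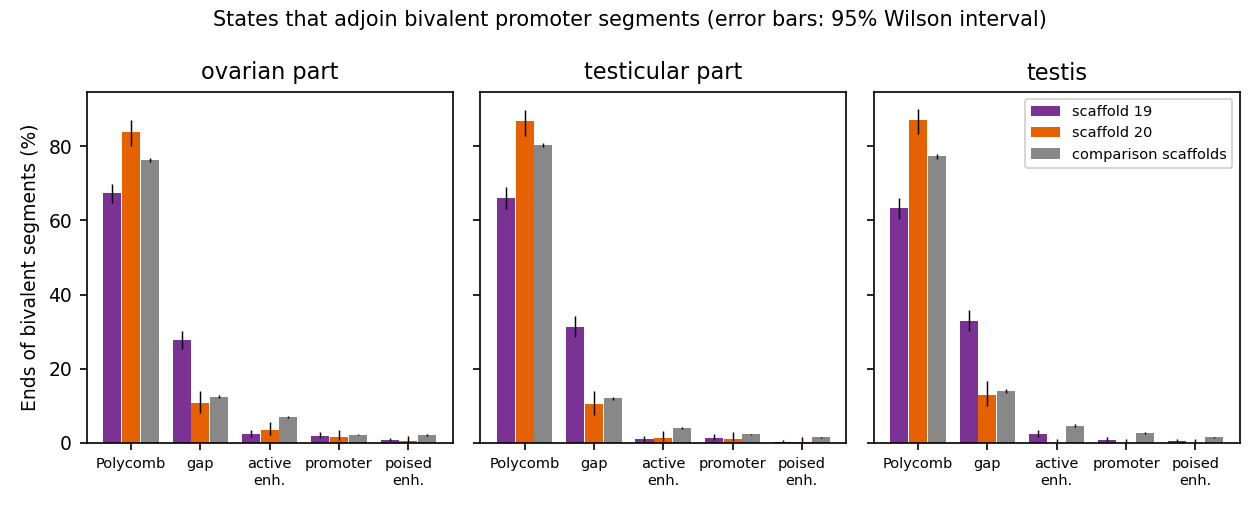
Percent of bivalent segment ends that adjoin each of 5 states, for scaffold 19, scaffold 20 and the comparison scaffolds in each tissue, with Wilson 95% intervals as error bars. Scaffold 19 has the lowest bars for Polycomb repression and the highest for the gap state in all 3 tissues.

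Many borders between bivalent and gap state were fixed in place across tissues. Of the 351, 319 and 375 such borders on scaffold 19, 225 were at the same position in all 3 tissues, which is 64.1%, 70.5% and 60.0%. Of the 2538, 2303 and 2891 such borders on the comparison scaffolds, 994 were shared, or 39.2%, 43.2% and 34.4%. Gap runs on scaffolds 19 and 20 were short, with a median of 600, 600 and 500 bp, and numbered 176, 171 and 185 per Mb against 51.2, 46.1 and 55.2 on the comparison scaffolds, where the median was 600 bp in each tissue. Of all bins called gap in any tissue on scaffolds 19 and 20, 68.1% were gap in all 3, against 56.5% on the comparison scaffolds. No bin that was bivalent in 1 tissue on scaffolds 19 and 20 was called gap in another. The comparison scaffolds were nearly the same, with at most 0.00169% of the bivalent bins of a tissue called gap in another.

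The bivalent bases of scaffolds 19 and 20 were largely the same in the 3 tissues. The Jaccard index, the bases bivalent in both tissues over those bivalent in either, was 0.757 [0.746 to 0.768] between the parts of the ovotestis, 0.808 [0.797 to 0.817] between ovarian part and testis and 0.803 [0.793 to 0.814] between testicular part and testis. The comparison scaffolds had 0.618, 0.598 and 0.645, and in their dense windows 0.715, 0.705 and 0.727. The indices of scaffold 19, at 0.764, 0.806 and 0.803, and of scaffold 20, at 0.746, 0.810 and 0.803, were close to each other. Scaffold 18 had 0.723, 0.624 and 0.582, but its bivalent coverage was unequal, at 15.5%, 14.3% and 22.6%, which limits the Jaccard index. As a share of the smaller set, 87.3%, 94.4% and 94.8% of its bivalent bases were shared. On scaffolds 19 and 20 those shares were 93.5%, 91.2% and 94.6%. A larger covered share can raise the Jaccard index by itself. The dense windows were picked on the mean over the same 3 tissues, which can raise their index as well.

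**Figure D5:**
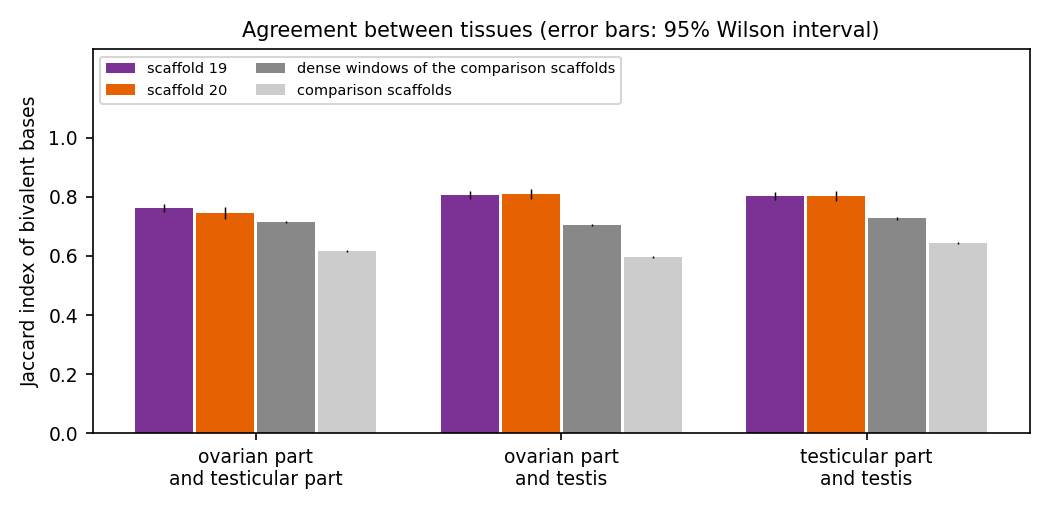
Jaccard index of bivalent bases for the 3 pairs of tissues on scaffold 19, scaffold 20, the dense windows of the comparison scaffolds and the comparison scaffolds as a whole, with Wilson 95% intervals as error bars. Scaffolds 19 and 20 have higher bars than the comparison scaffolds in each pair, and the dense windows lie between.

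Of the 1202 kb that were bivalent in at least 1 tissue on these scaffolds, 843 kb or 70.2% [69.0 to 71.3] were bivalent in all 3, against 48.9% on the comparison scaffolds. The testicular part, which had the fewest bivalent bases, was nearly contained in the others. The ovarian part was bivalent at 93.5% of its bivalent bases and the testis at 94.6%. Conversely, it was bivalent at 79.9% of the bivalent bases of the ovarian part and at 84.2% of those of the testis. By segments, 91.0% and 89.6% of its members touched a bivalent segment of the ovarian part and of the testis. The 62 and 72 that touched none were short, with a median of 200 bp.

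Where a bivalent base was not shared, it was mostly in the Polycomb state in the other tissue. Of the bases bivalent in the ovarian part and not in the testicular part, 93.1% were Polycomb in the latter, and of those not bivalent in the testis, 97.8% were Polycomb there. The same shares were 81.2% and 82.4% on the comparison scaffolds. The reverse comparison gave a lower share. Of the 91.6 kb bivalent in the testis and not in the ovarian part, 59.6% were Polycomb in the ovarian part, 27.5% were active enhancer and 9.39% were promoter. On the comparison scaffolds the same 3 values were 55.0%, 22.8% and 8.70%, near those of scaffolds 19 and 20.

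Bivalent segments of the 3 tissues were next merged when they lay within 1 kb of each other, which gave 437 regions, 348 on scaffold 19 and 89 on scaffold 20. Of these, 270 (61.8% [57.1 to 66.2]) were bivalent in all 3 tissues, against 39.6% of the 12364 regions of the whole assembly. They held 96.4% of the bivalent bases of the 437 regions, against 86.6% in the whole assembly. Regions bivalent only in the ovarian part numbered 55, or 12.6% against 15.8% in the whole assembly. Only the testicular part was bivalent in 12 regions (2.75% against 8.55%), and only the testis in 30 (6.86% against 14.6%). Both parts of the ovotestis without the testis accounted for 23 regions (5.26% against 6.54% in the whole assembly), ovarian part and testis for 37 (8.47% against 6.83%), and testicular part and testis for 10 (2.29% against 8.06%). These members were chosen on the bivalent state in the same tissues, so nothing beyond the counts is read from them. Regions of 1 tissue were short, with medians of 400, 200 and 400 bp, against 2000 bp for those of all 3. The whole assembly was similar, with medians of 400, 400 and 400 bp against 2200 bp.

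The largest regions were long domains with similar bivalent shares in the tissues. They were picked for the most bivalent bases summed over the tissues, so the choice itself favours a high share in each tissue. On scaffold 19 the largest ran for 92.6 kb, from 1496001 to 1588600, with 90.1%, 89.4% and 90.5% of its bases bivalent. Another, from 1356801 to 1410800, was more broken, with 70.7%, 64.4% and 70.4% bivalent and 19.6%, 27% and 20% Polycomb. The next in size, from 2728401 to 2768600, was bivalent over 90.5%, 90.5% and 91.0%. The remaining large regions were 3427401 to 3462000 and 1674201 to 1708800, each of 34.6 kb. On scaffold 20 the largest ran for 48.8 kb, from 123401 to 172200, with 44200, 42800 and 43600 bp bivalent. It was preceded by 81001 to 122000, with 35800, 34400 and 34600 bp bivalent, after a break of more than 1 kb. The other large regions of scaffold 20 were 282201 to 313800, 56801 to 77800 and 29801 to 49400. None of the 5 large regions of scaffold 20 had a promoter bin in any tissue. The same held for 2728401 to 2768600 and 3427401 to 3462000 of scaffold 19. Regions of at least 10 kb numbered 17 on scaffold 19 and 12 on scaffold 20, which is 4.89% and 13.5% of their regions, against 4.28% on the comparison scaffolds. The longest region of the comparison scaffolds measured 83800 bp.

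Regions bivalent in a single tissue showed different states elsewhere. The largest of the ovarian part alone, at 2575801 to 2578000 of scaffold 19, was bivalent over 2200 bp and Polycomb throughout in the other tissues. At 735201 to 737400 of scaffold 20 and at 3552001 to 3554000 of scaffold 19, the other tissues were also Polycomb throughout. The largest of the testicular part alone had 600 bp each, at 2178001 to 2178600 and 2900201 to 2900800 of scaffold 19, and both were Polycomb in the other tissues. Another, at 1004001 to 1004400, was undefined in the ovarian part and Polycomb in the testis. The 3 largest of the testis alone clustered on scaffold 19, at 3605201 to 3606600, 3610801 to 3612800 and 3617801 to 3619200. There the testis was bivalent over 1400, 1200 and 1400 bp, and the ovarian part was active enhancer over 1400, 1200 and 1400 bp. The testicular part was also active enhancer, over 1200, 1200 and 1400 bp, with 200 bp of promoter state in the first. In the 100 kb window that holds them, 3600201 to 3700200, the promoter and active enhancer states together covered 50%, 43.2% and 29.4%, the bivalent state 3.8%, 3.8% and 12.0% and Polycomb repression 15.8%, 20% and 27.6%. This window was noticed after its values were seen.

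Promoter-type elements, formed by joining promoter and bivalent promoter segments within 1 kb, were nearly always bivalent on these scaffolds. Of 445, 381 and 385 such elements, 93.0%, 96.3% and 99.0% held bivalent bases, against 33.5%, 36.4% and 39.0% of 19241, 17291 and 17537 on the comparison scaffolds. Elements are built in part from bivalent segments, and the members were chosen by bivalent state. A high bivalent share on scaffolds 19 and 20 thus follows from the choice. In the testis, scaffold 20 had no promoter bin, so its 84 elements could only be bivalent. Promoter state alone was found in 31, 14 and 4 elements of scaffolds 19 and 20. Elements with promoter state numbered 56, 30 and 14, which is 12.1, 6.48 and 3.02 per Mb, against 6.98, 6.03 and 5.95. They were thus denser than on the comparison scaffolds in the ovarian part and sparser in the testis.

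The promoter state on these scaffolds covered very different lengths in the 3 tissues. The ovarian part had 92 promoter segments over 71.2 kb, the testicular part 46 over 20 kb and the testis 23 over 12.0 kb. Its Jaccard indices were 0.134, 0.134 and 0.441 on scaffolds 19 and 20, against 0.646, 0.628 and 0.700 on the comparison scaffolds. The unequal lengths alone limit these indices to at most 0.281, 0.169 and 0.600 on scaffolds 19 and 20. As a share of the smaller set, 54%, 81.7% and 81.7% of promoter bases were shared, against 83.6%, 83.0% and 83.1% on the comparison scaffolds. Of the promoter bases of the ovarian part, 15.2% were promoter in the testicular part, 28.9% undefined, 17.1% poised enhancer, 16.01% Polycomb, 12.6% active enhancer and 6.74% bivalent. Of the same bases, 13.8% were promoter in the testis, 26.4% Polycomb and 12.1% bivalent there. The testicular part and the testis were promoter at 74.0% and 72.1% of the ovarian promoter bases of the comparison scaffolds. The 7.60 kb of ovarian promoter state on scaffold 20 were 28.9% bivalent and 68.4% Polycomb in the testicular part and 47.4% bivalent and 50% Polycomb in the testis. Much of the ovarian promoter state lay near the end of scaffold 19. It covered 12.4%, 9.8% and 17.8% of the windows at 3300201 to 3400200, 3500201 to 3600200 and 3600201 to 3700200. There the testicular part had 4.2%, 0% and 6.8%, and the testis 3.6%, 0% and 2.6%. Other full windows of both scaffolds had at most 3.8% in the ovarian part. Those near the end of scaffold 19 were noticed after their values were seen.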

How the data were processed

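Chromatin immunoprecipitation of 4 histone marks was sequenced from 24 mole gonad libraries, 8 per tissue. The authors deposited 1 table per tissue with 1 of 7 state names for each run of 200 bp bins on 4454 talOcc4 scaffolds; it holds no read counts, and depth is unknown. STAR 2.6.1d and mm9, a mouse build, appear in the submitters' processing notes; the tool behind the mole tables is not given in the sources used here. Mouse segmentations and gene models on another assembly were not used here.

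Tables were read into bins with Python 3.11.15, numpy 2.4.6 and pandas 2.3.3, figures were drawn with matplotlib 3.10.9, and the functions for runs, spacing, flanks and overlap were tested on simulated data. Members and lists were chosen with earlier results of these data known. Positions count from 1. Intervals come from scipy 1.17.1. Named regions were, per scaffold, the 5 merged regions with most bivalent bases over the tissues and the 100 kb windows with highest and lowest coverage under 50% gap, and, over both scaffolds, the 3 largest regions of each single tissue. The windows with the widest range between tissues, the low stretch, the dense windows, the gap borders and the fate of promoter bases were added after the data had been seen.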

Additional observations from a re-analysis of the deposited data

How the results depend on the processing

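The values rest on 1 segmentation per tissue, so differences between tissues carry the unknown error of the libraries, and depth limits are unknown. No paired analysis was possible because each segmentation pools the replicates of a tissue, and for the same reason no replicate could be left out. Of 66 alternative values, 33 stayed within the counting interval and 33 moved. Those that stayed include the Jaccard indices on bases outside the gap state. They could not move, because no bivalent bin of these scaffolds was called gap in another tissue. In the order ovarian part, testicular part and testis, coverage on scaffolds 19 and 20 of 23.4%, 19.97% and 22.5% was 18.6%, 16.1% and 18.1% for scaffold 19 alone, 44.4%, 37.1% and 41.8% for scaffold 20 alone, 28.1%, 24.0% and 27.1% of bases outside the gap state, 22.3%, 19.2% and 21.7% with segments of at least 400 bp, and 27.4%, 24.8% and 27.1% without the first and last 1 Mb, which leaves no base of scaffold 20. The ratio to the comparison scaffolds of 37.4, 32.4 and 32.5 was 29.9, 26.8 and 26.04 with scaffolds 15 and 18 added, and 35.9 and 37.5 in the ovarian and testicular part with the 5 shortest comparison scaffolds. The median length of 600 bp was 1000, 1000 and 1200 bp for scaffold 20 alone; in the testis it was 400 bp for scaffold 19 alone and 800 bp with segments joined across 400 bp. Spacing in the ovarian part was 1400 bp with segments of at least 400 bp. The Polycomb share of ends of 71.4%, 71.4% and 69.1% was 52.3%, 54.5% and 52.0% by the most frequent state of the adjoining 1 kb. With a tolerance of 200 bp the Jaccard indices were 0.825, 0.873 and 0.863, and for scaffold 20 alone the index between the parts of the ovotestis was 0.746. The comparison with dense windows was chosen after seeing the data.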
